A study of Mus musculus with 17 samples.

Results

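The genes followed here are 8 MAPK phosphatase genes of the mouse, Dusp1, Dusp2, Dusp4, Dusp5, Dusp6, Dusp8, Dusp10 and Dusp14, out of 21728 protein-coding genes on chromosomes 1-19 and X. They were chosen by name, with earlier results of these data known. Every open region of the genome called within a member's annotated gene body or 20 kb on either side of it was counted as part of its locus. The 8 loci held 100 merged regions, of which 53 were called in at least 2 libraries of 1 group and were kept, out of 147420 kept regions in the genome. The assay was ATAC-seq, in which a transposase cuts accessible DNA, on NeuN-positive (neuronal) nuclei sorted from the bilateral nucleus accumbens of C57BL/6 mice aged 52-54 days, and each of the 17 libraries pooled 3 animals. The groups were females in diestrus given cocaine (3 libraries) or left as controls (3), females in proestrus given cocaine (3) or left as controls (3), and males given cocaine (2) or left as controls (3). Cocaine was 10 mg/kg injected intraperitoneally 1 h before collection, and the labels call the other mice control and name no injection for them. The paper states that the controls got no cocaine and were the baseline time point. The drug, the injection and the 1 h after it therefore cannot be told apart in any cocaine minus control difference. The second diestrus cocaine library has a blank stage label and was grouped by its title. All p-values measure the spread between these pooled libraries, which may be partly technical. The study asked how a first dose of cocaine changes neuronal chromatin in each sex and estrous stage.

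MAPK phosphatases remove phosphate from both the threonine and the tyrosine that switch on the MAP kinases ERK, JNK and p38, and so end the signal those kinases carry. Many of them are themselves switched on by the pathway they turn off, which makes them negative feedback genes, and in the striatum dopamine and glutamate input activates ERK in medium spiny neurons. Dusp1, Dusp2, Dusp4 and Dusp5 encode inducible nuclear enzymes, Dusp5 acting on ERK alone. Dusp6 encodes a cytoplasmic enzyme specific for ERK, Dusp8 and Dusp10 encode enzymes that prefer JNK and p38, and Dusp14 encodes a small phosphatase that lacks the usual kinase-binding domain. Accessibility at a gene's start is a measure of its chromatin and not of its RNA.

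The promoters of 3 members held a full motif of an activity-regulated factor, and they are shown with each motif in capitals because the strongest ATAC-seq summit of each gene lay within 100 bp of its 5′ end. Promoters are RefSeq sequences of GRCm38.p6 from 250 bases before to 50 bases after the start, and 7 of the 8 members had an entry. Dusp4 had none, so its promoter was not searched. Both strands were searched for the cAMP response element TGACGTCA, the AP-1 site TGAGTCA or TGACTCA, the CArG box (CC, then 6 A or T, then GG) and, by name, the Egr site and the full estrogen response element. The Dusp1 promoter (chr17:26508423-26508722, minus strand) held a cAMP response element whose first base is 143 bases before the start, and the Dusp8 promoter (chr7:142095235-142095534, minus strand) held 2 of them, starting 107 and 63 bases before the start. The Dusp5 promoter (chr19:53528895-53529194, plus strand) held 2 adjoining CArG boxes. The Dusp6 promoter (chr10:99262981-99263280, plus strand) is printed because its region changed after cocaine, and no match to these motifs was found in it.
Dusp1 promoter: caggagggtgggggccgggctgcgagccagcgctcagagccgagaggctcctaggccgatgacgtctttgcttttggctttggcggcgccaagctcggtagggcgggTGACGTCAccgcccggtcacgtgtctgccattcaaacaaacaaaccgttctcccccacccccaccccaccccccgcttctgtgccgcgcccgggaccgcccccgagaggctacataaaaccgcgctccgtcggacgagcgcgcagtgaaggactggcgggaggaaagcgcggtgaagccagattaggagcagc
Dusp5 promoter: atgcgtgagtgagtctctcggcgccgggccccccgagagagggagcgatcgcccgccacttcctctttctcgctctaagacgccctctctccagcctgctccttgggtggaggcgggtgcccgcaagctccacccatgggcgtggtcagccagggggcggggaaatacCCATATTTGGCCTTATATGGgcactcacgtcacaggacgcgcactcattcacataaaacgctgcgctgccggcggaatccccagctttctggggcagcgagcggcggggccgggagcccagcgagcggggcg
Dusp8 promoter: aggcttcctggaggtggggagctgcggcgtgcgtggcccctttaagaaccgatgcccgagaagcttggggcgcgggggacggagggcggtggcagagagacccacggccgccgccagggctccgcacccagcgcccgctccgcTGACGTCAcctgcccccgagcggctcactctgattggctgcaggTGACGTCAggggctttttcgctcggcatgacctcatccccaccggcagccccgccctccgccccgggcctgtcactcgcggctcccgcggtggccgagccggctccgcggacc
Dusp6 promoter: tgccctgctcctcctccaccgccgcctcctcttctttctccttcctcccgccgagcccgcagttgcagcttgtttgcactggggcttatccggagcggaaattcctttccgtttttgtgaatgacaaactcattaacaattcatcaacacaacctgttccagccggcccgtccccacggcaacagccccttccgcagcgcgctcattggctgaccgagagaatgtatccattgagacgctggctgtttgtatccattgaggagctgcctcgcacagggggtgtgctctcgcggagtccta

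Over all 32851 RefSeq promoters, 1.79% held the cAMP response element, 1.63% a CArG box, 5.20% an AP-1 site, 0.612% the Egr site and 0.0700% the estrogen response element. Around the strongest summit of the 53 kept regions, within 100 bp, 11 regions (20.8%) held an AP-1 site, against 10.1% of all kept regions searched the same way. The cAMP response element stood at the summit of 2 member regions, the 5′ ends of Dusp1 and Dusp8, where 0.498% of kept regions hold it. A CArG box stood at 3 member regions, one of them the Dusp5 5′ end, where 1.12% of kept regions hold it. These are matches of letters, and binding was not measured.

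Distal windows with an AP-1 site that the results below turn on are shown next, 100 bases to either side of the summit and on the plus strand, with the site in capitals. The first lies 12.2 kb before the Dusp6 start (chr10:99250915-99251115), the second 20 kb before the Dusp8 start (chr7:142115180-142115380) and the third 41.1 kb before the Dusp1 start, in an intron of a long Dusp1 transcript (chr17:26549476-26549676).
Dusp6 upstream region: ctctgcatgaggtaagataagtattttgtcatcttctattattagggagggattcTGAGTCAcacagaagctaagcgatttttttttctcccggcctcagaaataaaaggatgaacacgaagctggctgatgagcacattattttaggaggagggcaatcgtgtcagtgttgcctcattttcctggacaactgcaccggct
Dusp8 upstream region: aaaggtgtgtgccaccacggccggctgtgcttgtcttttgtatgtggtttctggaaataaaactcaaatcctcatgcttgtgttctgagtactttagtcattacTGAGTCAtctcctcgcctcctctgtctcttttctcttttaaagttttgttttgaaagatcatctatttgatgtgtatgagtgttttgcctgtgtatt
Dusp1 intron region: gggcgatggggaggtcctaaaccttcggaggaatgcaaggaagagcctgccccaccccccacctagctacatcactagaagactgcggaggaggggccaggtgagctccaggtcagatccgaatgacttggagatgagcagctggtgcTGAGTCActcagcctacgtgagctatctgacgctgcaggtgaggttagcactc

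All 8 members had an open 5′ end in all 17 libraries. Of the 53 kept regions, 8 were these 5′ ends, 2 were the 5′ ends of neighbouring genes (Ergic1 beside Dusp1 and Mob2 beside Dusp8) and 43 were distal, more than 1 kb from any protein-coding 5′ end. Every library called 19 of the 53, of which 9 were distal. The loci differed in how much open chromatin lay outside the start. Dusp14 had 11 kept regions, Dusp1 and Dusp8 had 9 each, Dusp4 and Dusp5 had 8 each, Dusp6 had 4, Dusp2 had 3 and Dusp10 had 1, although the Dusp10 gene body is the longest of the 8 at 62.3 kb.

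**Figure D1:**
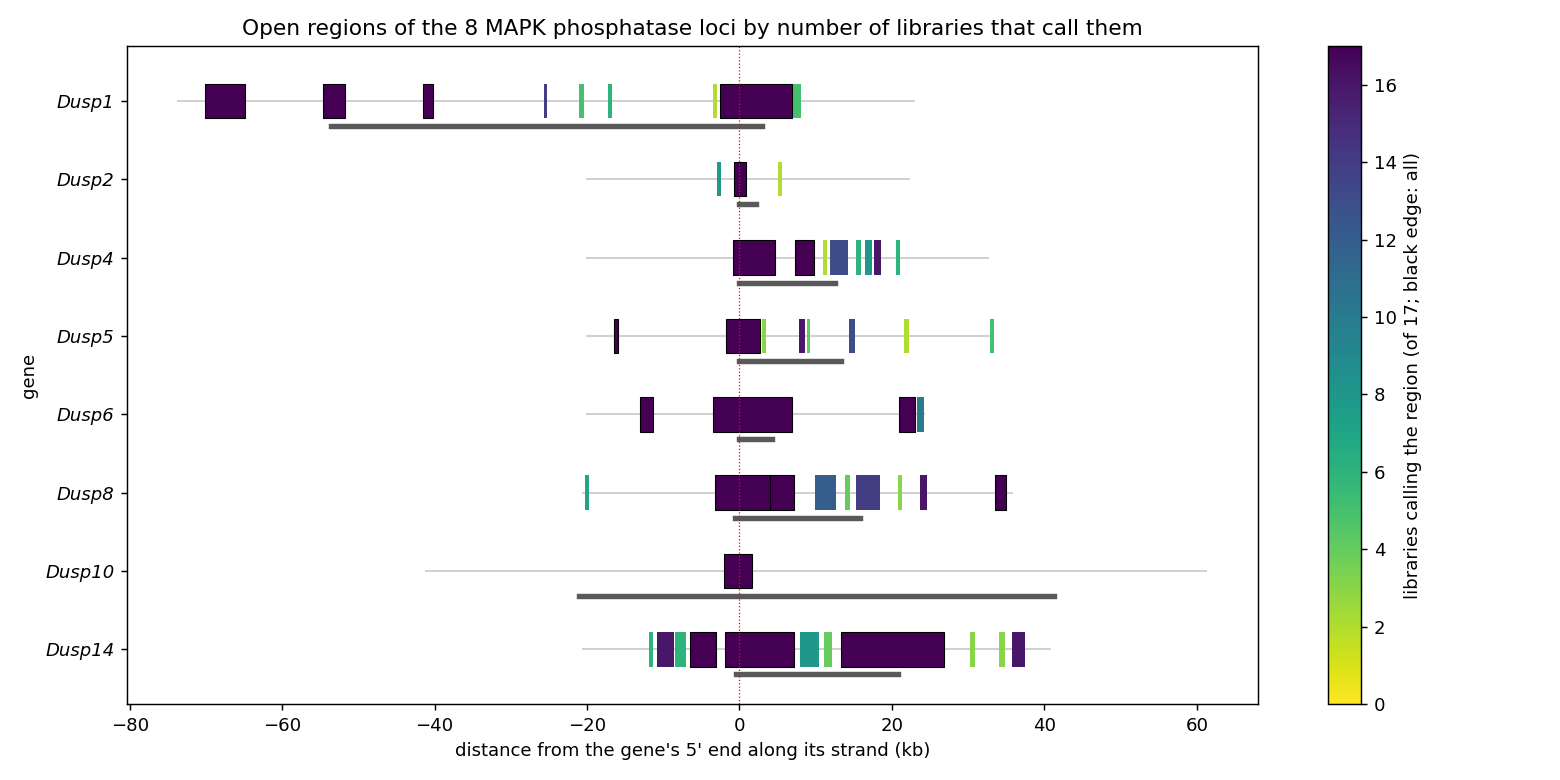
Kept open regions of the 8 loci, with the distance from each gene's 5′ end in kb along its strand on the x axis and 1 row per gene. Boxes are regions shaded by the number of libraries that call them (of 17, black edge where all do), the thick bar below each row is the gene body and the thin line the searched locus. Every gene has a region called in all libraries at its 5′ end, and Dusp10 has no other kept region over 62.3 kb of gene body.

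Strength is given as MACS2 fold enrichment, the summit's reads plus 1 over the library's constant background plus 1, with backgrounds of 6.26 to 9.55 reads, divided by the library's median over the 36847 regions called in all libraries. On this relative scale 1 is a typical always-open region. The Dusp10 5′ end (chr1:184032349-184036041) was the strongest of the members, with a median over libraries of 5.11 and a range of 3.85 to 7.63. Dusp6 (chr10:99259774-99270098, median 3.49, range 2.72 to 4.19) and Dusp8 (chr7:142091219-142098489, median 3.45, range 2.83 to 4.81) came next and overlapped each other almost wholly. Dusp1 (chr17:26501639-26511105) followed at 2.79, with a range of 2.19 to 3.86. Dusp5 (chr19:53527405-53531857) at 2.19, with a range of 1.60 to 2.45, and Dusp4 (chr8:34806412-34811899) at 2.06, with a range of 1.59 to 2.82, did not differ beyond their spread. Dusp14 (chr11:84061697-84070633) had a median of 1.52 and a range of 1.09 to 1.84, and Dusp2 (chr2:127335434-127336991) a median of 1.00 and a range of 0.690 to 1.22. The strongest summit of the Dusp14 region lay 1.6 kb downstream of the start, which the region spans. Fold enrichment is read at the summit and needs no correction for gene length, but wide regions hold several summits and the highest one was used.

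The 5′ ends of Dusp4 and Dusp6 were stronger after cocaine on the mean over sexes and stages, and neither passed within a single stratum. Dusp4 rose by 0.32 on the log2 scale (SE 0.083, adjusted p = 0.00792) and Dusp6 by 0.28 (SE 0.081, adjusted p = 0.0179), as the mean of the cocaine minus control differences in diestrus, proestrus and males (limma, Benjamini-Hochberg over 36847 regions). These were the only 2 of the 19 member regions called in all libraries that rose on that mean, where 7.95% of all such regions did, and 7.56% of the 10225 at protein-coding 5′ ends. They were also the only 2 of the 19 in which every cocaine library lay above every control library of its own stratum in all 3 strata, against 1.06% of regions in general, and no member region lay below in all 3, against 0.632%. Within 1 stratum such separation was common. In males cocaine libraries lay above all controls at 11846 of the 36847 regions, in diestrus at 4989 and in proestrus at 4386. Of the 19 member regions 8, 7 and 3 did so. Cocaine libraries lay below all controls at 6326, 3858 and 4852 regions in the same order, among them 4, 1 and 1 member regions.

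At Dusp4, a nuclear phosphatase of ERK and JNK, the relative strength was 1.78, 1.85 and 1.68 in diestrus controls and 1.97, 2.29 and 2.40 after cocaine. In proestrus it was 1.94, 2.06 and 2.17 in controls and 2.26, 2.82 and 2.24 after cocaine. In males it was 1.59, 1.87 and 1.75 in controls and 2.25 and 2.35 after cocaine. The groups did not overlap in any stratum, and the difference held its adjusted p below 0.05 when any 1 library was left out (0.00182 to 0.0336). Without centring on the library median it was 0.20 (adjusted p = 0.201) and did not pass. Taken alone no stratum passed, with adjusted p = 0.114 in diestrus, 0.315 in proestrus and 0.0824 in males.

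At Dusp6, the cytoplasmic ERK phosphatase, diestrus controls were at 2.74, 2.89 and 2.89 and diestrus cocaine libraries at 3.00, 4.19 and 3.87. Proestrus controls were at 2.72, 3.32 and 3.25 and proestrus cocaine libraries at 4.02, 4.19 and 3.95. Male controls were at 3.49, 3.63 and 3.40 and male cocaine libraries at 3.71 and 3.74. The log2 differences were 0.36 in diestrus (adjusted p = 0.0718), 0.39 in proestrus (adjusted p = 0.0903) and 0.087 in males (adjusted p = 0.750), so no stratum passed alone, and the difference between male and female effects did not pass (−0.29, SE 0.179, adjusted p = 0.251). The mean effect lost its call when the second diestrus cocaine library, whose stage label is blank, or either male cocaine library was left out, with adjusted p up to 0.0569, and without centring it was 0.16 (adjusted p = 0.331).

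Dusp10 and Dusp5 had differences of like size that did not pass. Dusp10, a JNK and p38 phosphatase, had a mean difference of 0.28 (SE 0.098, adjusted p = 0.0534). It was at 4.26, 4.89 and 4.45 in diestrus controls and 4.97, 6.33 and 6.51 after cocaine, at 3.85, 4.74 and 5.11 in proestrus controls and 4.86, 7.63 and 4.10 after cocaine, and at 5.13, 5.67 and 5.57 in male controls and 6.08 and 6.54 after cocaine. The groups overlapped in proestrus and stood apart in diestrus and males. Dusp5, the nuclear ERK phosphatase, had a mean difference of 0.23 (SE 0.084, adjusted p = 0.0640), with diestrus controls at 1.78, 1.98 and 2.06 and cocaine libraries at 2.40, 2.29 and 2.34. Its proestrus and male groups overlapped. With centring within bins of GC content Dusp10 passed (0.30, adjusted p = 0.0130).

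Dusp1, Dusp2, Dusp8 and Dusp14 gave mean differences between −0.082 and 0.090 on the log2 scale, with adjusted p from 0.553 to 0.844. Dusp1, the best known early-response member, was at 2.34, 3.46 and 2.95 in diestrus controls and 3.04, 2.78 and 2.38 after cocaine, and at 2.74, 3.16 and 3.86 in proestrus controls and 2.72, 3.72 and 2.79 after cocaine. Its female groups overlapped in both stages. In males the controls were at 2.48, 2.39 and 2.19 and the cocaine libraries at 3.29 and 3.04, apart from each other but not past the threshold (0.43, adjusted p = 0.103). Male groups stood apart in this direction at 11846 of the 36847 regions. The Dusp8 5′ end had male controls at 3.06, 3.09 and 3.26 and male cocaine libraries at 3.96 and 4.09 (0.36, adjusted p = 0.189), and with overlapping female groups.

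**Figure D2:**
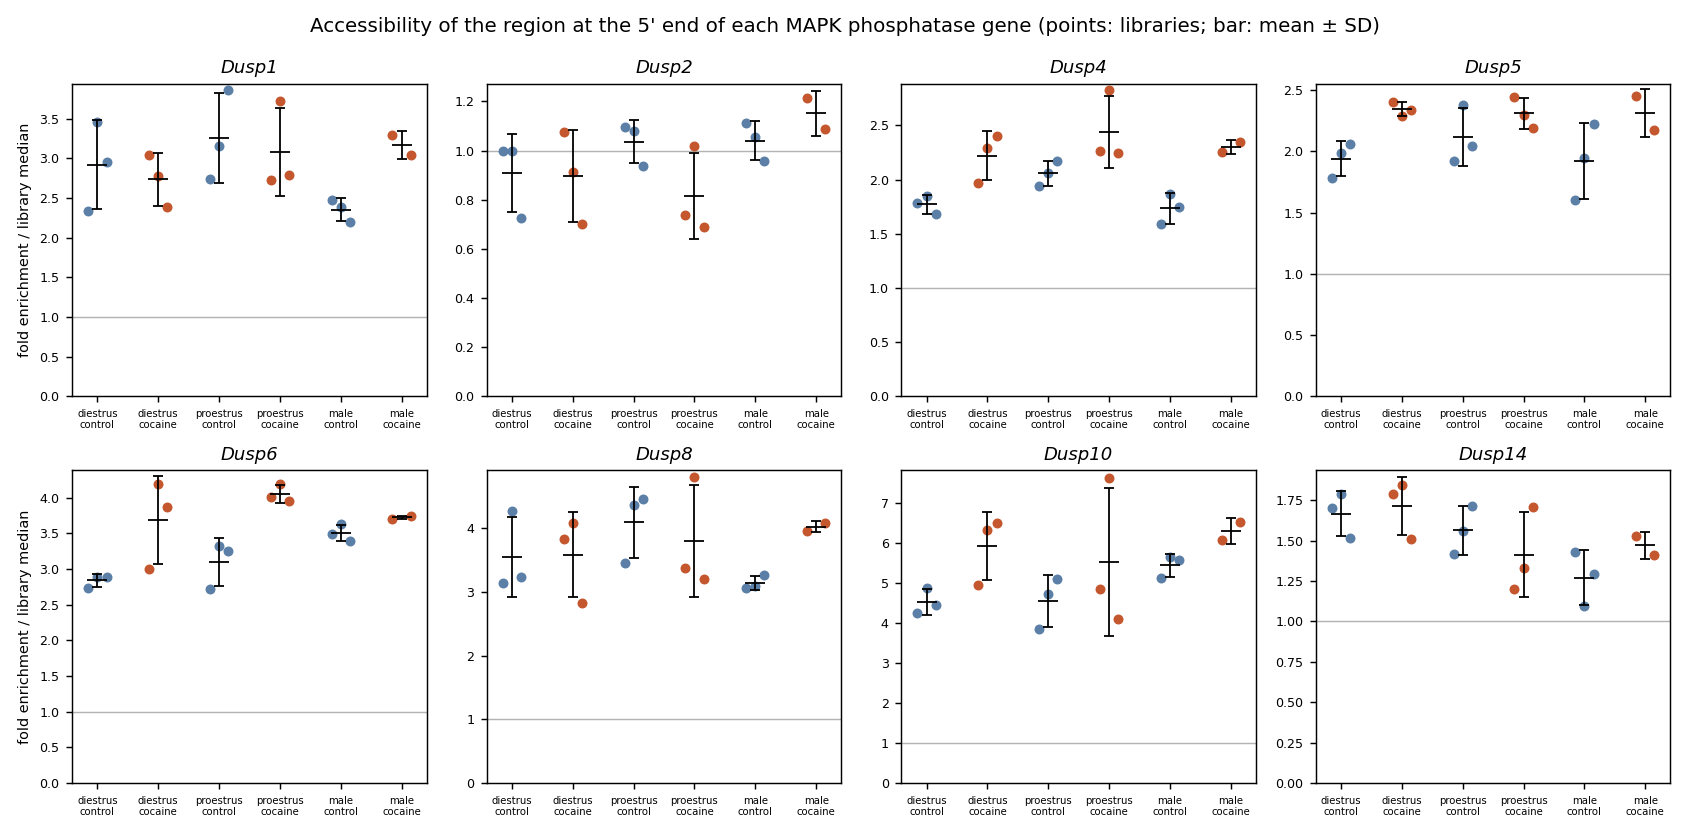
Relative strength of the region at each member's 5′ end in every library, on the y axis as fold enrichment over the library median, with the 6 groups on the x axis, points for libraries and bars for mean ± SD. At Dusp4 and Dusp6 all cocaine points lie above the control points of the same stratum, and at Dusp1 and Dusp8 this holds in males alone. In males it holds at 11846 of the 36847 regions called in all libraries.

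Within single strata few member regions passed. In diestrus 0 of 19 were higher (6.16% of all regions) and 1 was lower (4.9%). In proestrus 0 were higher (1.55%) and 0 lower (1.85%), with a lowest adjusted p of 0.0738. In males 1 was higher (5.56%) and 1 lower (4.0%). The median log2 difference of the 19 was 0.022 in diestrus, −0.12 in proestrus and 0.21 in males, beside 0.014, −0.017 and 0.088 over all regions. On the mean of the 3 strata 1 member region was lower, where 5.87% of all regions were.

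**Figure D3:**
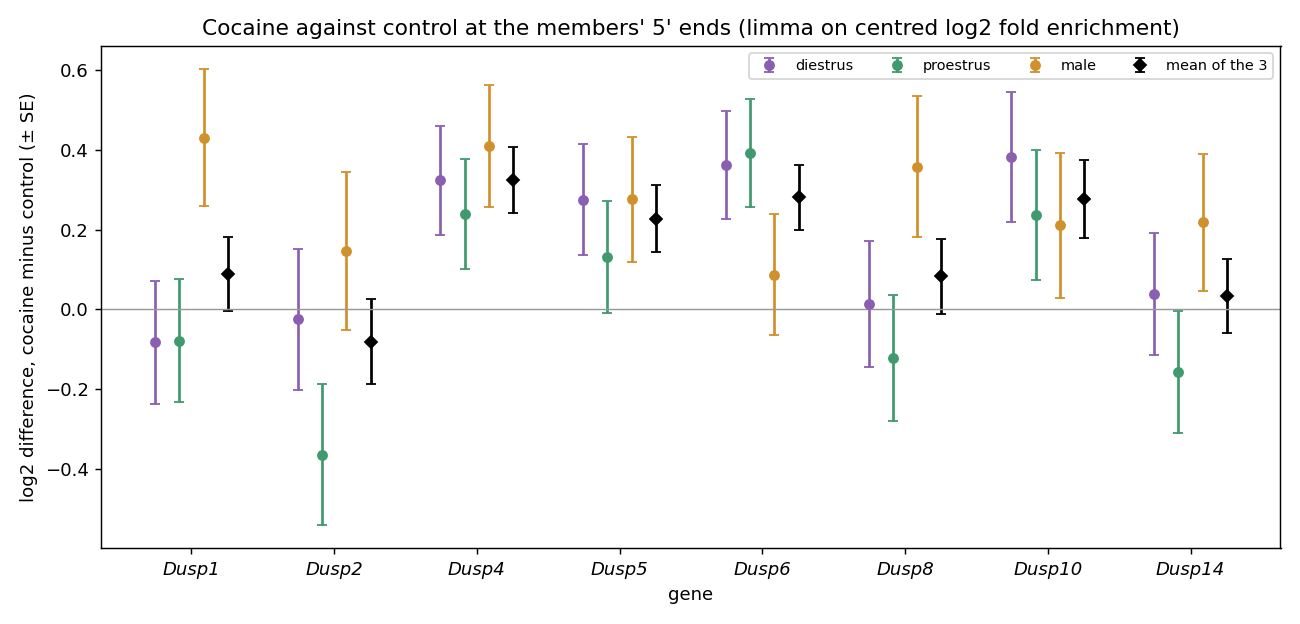
Log2 difference in strength, cocaine minus control, at the 5′ end of each member (x axis) in diestrus, proestrus and males and as their mean, with bars for the standard error. Dusp4, Dusp5, Dusp6 and Dusp10 have 4 positive estimates each, while Dusp1, Dusp2, Dusp8 and Dusp14 have a mean near 0.

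The lower region lay 67.7 kb before the Dusp1 start, inside Ergic1, the gene next to Dusp1, whose product works in transport between the endoplasmic reticulum and the Golgi (chr17:26573367-26578624). Its relative strength was 0.820, 1.16 and 1.11 in diestrus controls and 0.806, 0.655 and 0.660 after cocaine. It was 0.906, 1.04 and 0.778 against 0.846, 0.632 and 0.793 in proestrus, where the groups overlapped, and 1.29, 1.04 and 1.09 against 0.843 and 0.826 in males. The mean difference was −0.41 (SE 0.104, adjusted p = 0.00711), and in diestrus alone it was −0.53 (SE 0.173, adjusted p = 0.0408). The mean kept its call without any 1 library, and the diestrus value lost it without 4 of the 6, up to adjusted p = 0.177.

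The distal regions of Dusp6 differed from its 5′ end. The region 12.2 kb upstream, with the AP-1 site shown above, was at 1.70, 1.36 and 1.41 in diestrus controls and 1.66, 1.86 and 1.91 after cocaine. In proestrus it was at 1.21, 1.34 and 1.46 in controls and 1.83, 1.70 and 1.91 after cocaine, and in males at 1.51, 1.98 and 1.68 in controls and 1.35 and 1.33 after cocaine. The proestrus and male groups stood apart in opposite directions and the diestrus groups overlapped, and the male effect minus the female effect was −0.72 (SE 0.192, adjusted p = 0.0100). No stratum passed alone (log2 differences of 0.29, 0.45 and −0.35). The region 21.9 kb downstream (chr10:99284166-99286201) was lower in males, at 1.89, 2.02 and 1.76 in controls and 1.22 and 1.39 after cocaine (−0.54, SE 0.171, adjusted p = 0.0401), a call lost without any 1 of the 5 male libraries.

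At the region 41.1 kb before the Dusp1 start the male effect was the higher one. The control sex difference there (−0.70, given below) rests on the same male controls, so these results are not independent. Diestrus controls were at 1.20, 1.28 and 1.52 and cocaine libraries at 1.52, 1.03 and 0.702, which overlapped, and proestrus controls were at 1.04, 1.52 and 1.37 and cocaine libraries at 1.06, 0.877 and 0.983, which overlapped slightly. Male controls were at 0.905, 0.759 and 0.765 and male cocaine libraries at 1.29 and 1.00, apart. The male effect minus the female effect was 0.88 (SE 0.257, adjusted p = 0.0168), and it was 0.62 (adjusted p = 0.0777) with centring within bins of GC content. The Mob2 5′ end at the far side of the Dusp8 locus, 34.3 kb downstream of the Dusp8 start, rose in males by 0.71 (SE 0.223, adjusted p = 0.0387), from 1.38, 0.852 and 0.985 to 1.61 and 1.83, and its male effect exceeded the female effect by 0.87 (SE 0.264, adjusted p = 0.0208). Of the 19 member regions 2 thus had a higher male effect, where 11.9% of all regions did, and 1 a lower one, where 6.53% did, so the counts are near the background. Leaving out the second male control or the first male cocaine library ended the call of all 3 differences, with adjusted p up to 0.0611 at the Dusp6 region, 0.157 at the Dusp1 region and 0.126 at Mob2, and the second male cocaine library did so at Dusp6 and Mob2. The male rise at Mob2 lost its call without 4 of the 5 male libraries (adjusted p up to 0.260) and with centring within bins of GC content (0.52, adjusted p = 0.0741).

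The male cocaine libraries stood apart in peaks called and length covered, and this touches every male value. They held 87707 and 75458 peaks, against 99789 to 157005 in the other 15 libraries, and covered 42.2 to 50.7 Mb of the genome against 80.9 to 97.2 Mb in male controls. Without centring on the library median, the median difference over all regions was −0.40 in males and −0.094 on the mean. The male cocaine backgrounds of 8.15 and 7.60 reads lay within the 6.26 to 9.55 of all libraries, and total read depth was not used. The part of the lower peak number in the male differences was not tested. In sorted bulk nuclei, fewer open cells and less opening per cell cannot be told apart.

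Outside the 19 regions called everywhere, 34 kept regions were called in some libraries only, with a mean fold enrichment of 2.31 to 6.01 and 23 of them in 2 to 8 libraries. Both male cocaine libraries, the ones with the fewest peaks, lacked 24 of the 34, while all 3 male controls lacked 12 and all libraries of the other groups lacked 8 to 12. Absence from 2 libraries is easier to meet than absence from 3. The same shares over all partly called regions were not computed, so these counts are not a result about the members. A group that separates completely, called in every library of one condition and in none of the other, cannot reach p below 0.05 with 3 libraries against 3 (exact permutation test, two-sided, smallest p 0.1) or 3 against 2 (0.2), so these are counts.

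**Figure D4:**
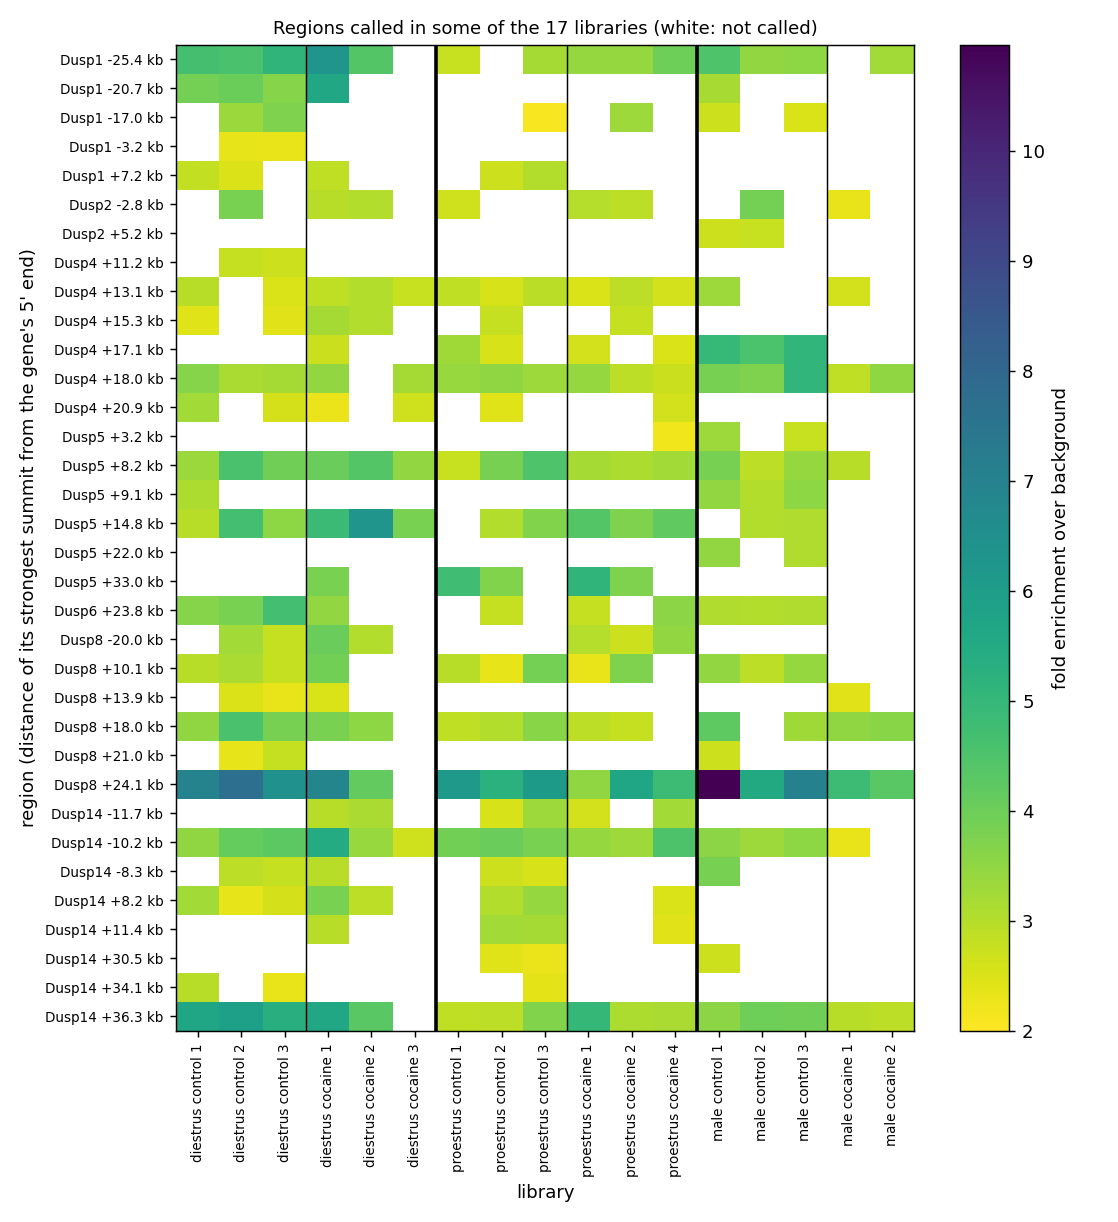
Fold enrichment of the 34 kept member regions called in some libraries only, with regions on the y axis by their distance from the 5′ end in kb, libraries on the x axis and white where no peak was called. Thick lines part diestrus, proestrus and males, and the columns of both male cocaine libraries, which hold the fewest peaks, are blank in 24 rows.

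After cocaine 1 member region was gained in proestrus, where 2.45% of all kept regions were gained, and 0 were lost (1.64%). It lay 20 kb before the Dusp8 start, at the edge of the searched locus (chr7:142115011-142115540), with the AP-1 site 4 bases from its summit. The 3 proestrus cocaine libraries had fold enrichments of 3.00, 2.67 and 3.46 there, and no proestrus control had a peak. In diestrus, controls 2 and 3 had 3.24 and 2.80 and cocaine libraries 1 and 2 had 4.04 and 3.02, and no male library had one. In diestrus the call did not separate cocaine from control libraries.

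In males 4 member regions were lost after cocaine, where 16.8% of all kept regions were lost, and 0 were gained (1.66%). They lay 17.1 kb downstream of the Dusp4 start, 9.1 kb downstream in an intron of Dusp5, 23.8 kb downstream of the Dusp6 start and 10.1 kb downstream in an intron of Dusp8. At Dusp4 the male controls had fold enrichments of 4.97, 4.54 and 5.05, higher than the 2.51 to 3.27 of the 5 female libraries with a peak. At Dusp5 the male controls had 3.44, 3.03 and 3.51, at Dusp6 3.06, 3.03 and 3.07, and at Dusp8 3.44, 2.89 and 3.40. With the same number of strongest peaks taken from every library 1 member region was lost, where 9.37% of all kept regions were. In diestrus 0 member regions were gained (1.16%) and 0 lost (1.26%).

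Over all libraries, 19 of the 53 member regions could be tested by Fisher's exact test of the calls (8 cocaine against 9 control libraries). The Dusp8 region 10.1 kb downstream was called in all 9 controls and in 3 of the 8 cocaine libraries (exact two-sided p = 0.00905 before adjustment). It was the 1 member region called less often at an unadjusted p under 0.05, where 9.23% of 64304 tested regions were, and 0 were called more often (3.81%). After Benjamini-Hochberg adjustment 0 regions of the genome passed (0%).

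Between control males and control females 3 of the 19 member regions passed, all lower in males and from 2 genes, a share near that of all regions in that direction. In control males the Dusp1 5′ end was lower than in control females by 0.37 on the log2 scale (SE 0.134, adjusted p = 0.0370), the Dusp1 region 41.1 kb upstream was lower by 0.70 (SE 0.168, adjusted p = 0.00262), and the Dusp14 5′ end was lower by 0.35 (SE 0.133, adjusted p = 0.0495). Dusp14, whose strongest summit lay 1.6 kb downstream of its start, was at 1.43, 1.09 and 1.29 in male controls. These values lay below the 1.52 to 1.79 of diestrus controls and overlapped the 1.42 to 1.71 of proestrus controls. All 3 were lower, where 14.4% of all regions were, and 0 were higher, where 10.5% were. Between the stages, diestrus against proestrus controls, 0 member regions were higher (0.214%) and 0 lower (0.103%), with a lowest adjusted p of 0.365. The Dusp1 5′ end lost its call without 7 of the 9 control libraries (adjusted p up to 0.162) and the Dusp14 5′ end without 6 of the 9 (up to 0.297), while the Dusp1 region 41.1 kb upstream kept it without any 1 of them. Without centring 0 of the 3 passed and 5 member regions were higher in males, and the median of all regions moved by 0.29.

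Few calls separated the control groups. The Dusp1 region 20.7 kb upstream had peaks of 3.87, 4.02 and 3.63 in diestrus controls and none in proestrus controls or proestrus cocaine libraries, which made it the 1 region called in diestrus and not in proestrus (3.96% of all kept regions), with 0 the other way (0.792%). The Dusp4 region 17.1 kb downstream was the 1 called in male and not in diestrus controls (9.05%), and the Dusp5 region 9.1 kb downstream the 1 called in male and not in proestrus controls (10.5%). Both are among the regions lost in males after cocaine, a comparison that shares the male controls. The Dusp14 region 8.2 kb downstream was the 1 called in diestrus and not in male controls (3.02%), and 0 were called in proestrus and not in male controls (1.42%).

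The length of each locus inside peaks, per Mb that the library covers, gives a level over the whole locus, tested by limma over 16384 protein-coding loci. Dusp4 rose on the mean of the 3 strata by 0.38 on the log2 scale (SE 0.083, adjusted p = 0.00464) and Dusp10 by 0.50 (SE 0.155, adjusted p = 0.0233). These were 2 of 8 members higher, where 18.6% of loci were, and 0 were lower, where 15.1% were, so the count is near the background. Dusp4 covered 78.6, 76.9 and 69.8 base pairs per Mb in diestrus controls and 83.7, 76.6 and 95.7 after cocaine, which overlapped, and 73.4, 66.2 and 69.3 against 80.2, 107 and 75.7 in proestrus, which did not. In males it covered 64.6, 66.2 and 62.5 in controls and 104 and 101 after cocaine (0.66, SE 0.155, adjusted p = 0.0117). It was the 1 member higher in males (9.88% of loci), and 0 were lower (5.62%). That male call was lost without either male cocaine library (adjusted p up to 0.0992), and unscaled the male value turned to −0.31.

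**Figure D5:**
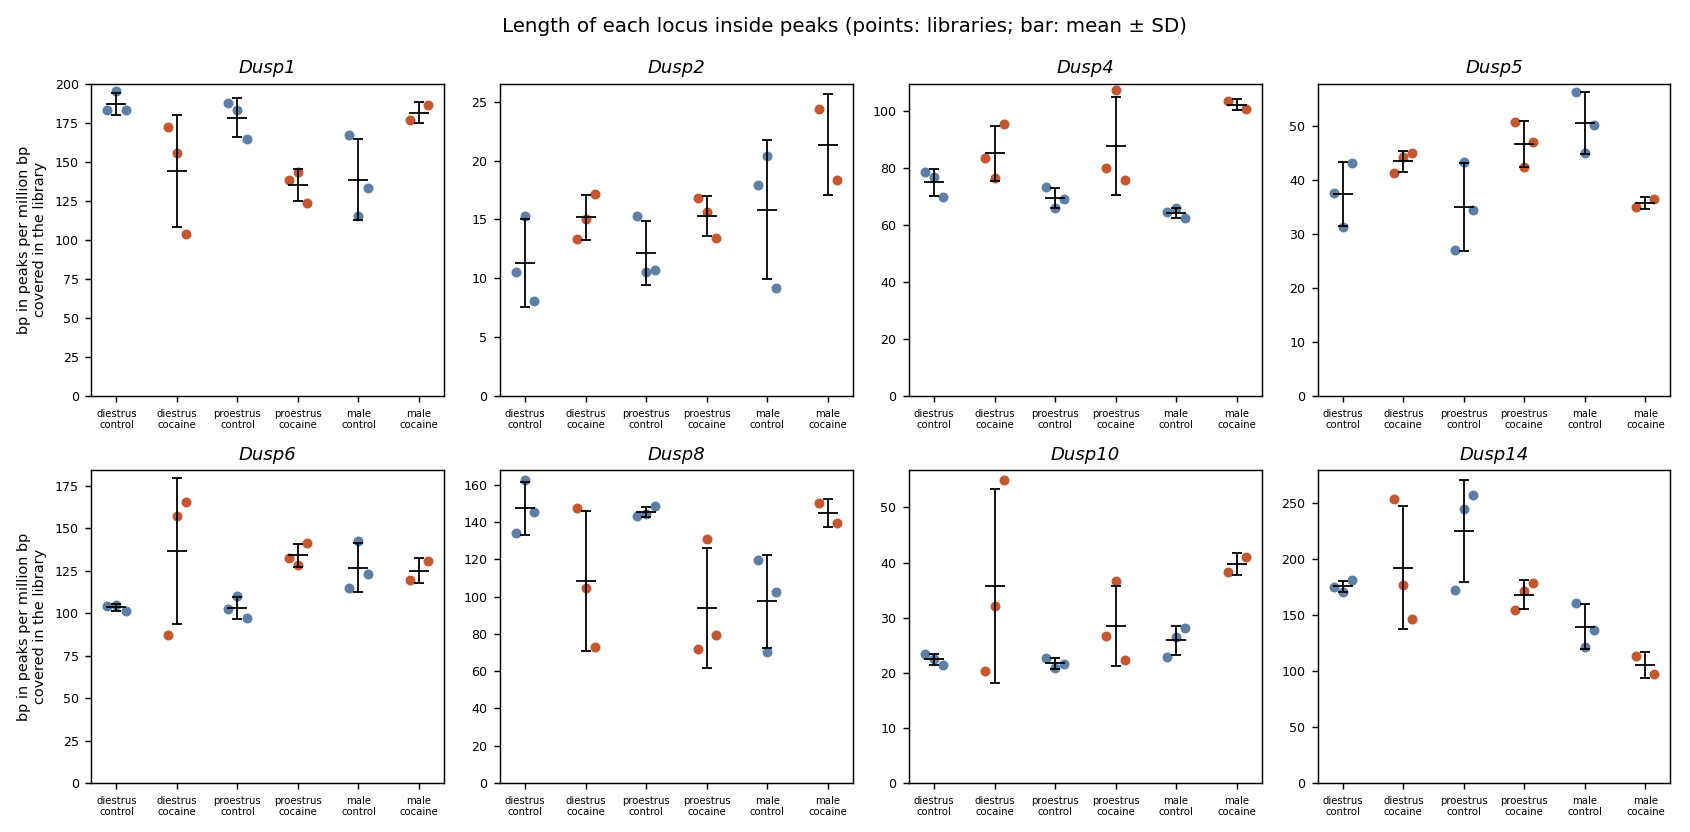
Base pairs of each locus inside peaks per Mb covered in the library (y axis) for the 6 groups (x axis), with points for libraries and bars for mean ± SD. The male cocaine points of Dusp4 lie above all male controls, and those of Dusp5 lie below all male controls.

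Dusp10 covered 23.4, 22.6 and 21.4 per Mb in diestrus controls and 20.4, 32 and 54.9 after cocaine, a wide spread, and in males 22.9, 26.5 and 28.2 in controls and 38.3 and 41.1 after cocaine, which did not overlap. Its mean lost the call without the second male cocaine library (adjusted p = 0.0627). Dusp8 was the 1 member lower in proestrus (−0.68, SE 0.248, adjusted p = 0.0404), where 25.7% of loci were lower, and 0 members were higher (14%). It covered 143, 144 and 149 in proestrus controls and 71.7, 131 and 79.2 after cocaine, and its call was lost without 5 of the 6 proestrus libraries. In diestrus 0 members were higher (4.63%) and 0 lower (2.4%).

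The effect of cocaine on covered length differed between the sexes at 3 of 8 members, a share near that of all loci. The male effect exceeded the female effect by 1.18 at Dusp8 (SE 0.329, adjusted p = 0.0139) and by 0.80 at Dusp1 (SE 0.223, adjusted p = 0.0139), and 23% of loci differed in that direction. At Dusp5 the male effect was lower by 0.81 (SE 0.223, adjusted p = 0.0137), as at 10.6% of loci. Dusp8 covered 120, 70.4 and 103 in male controls and 150 and 140 after cocaine, which stood apart. Dusp5 covered 56.4, 45.1 and 50.3 in male controls and 35.1 and 36.6 after cocaine, also apart. Without the second male cocaine library all 3 calls were lost, and without the first those of Dusp5 and Dusp8, with adjusted p up to 0.0774. Unscaled, the Dusp1 difference turned to −0.058 and the Dusp4 mean to −0.0076, with a median over all loci of −0.80 in males.

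In the controls, male loci covered less at Dusp1 (−0.41, adjusted p = 0.0321), Dusp8 (−0.61, adjusted p = 0.0306) and Dusp14 (−0.51, adjusted p = 0.0196) and more at Dusp5 (0.49, adjusted p = 0.0144). Of all loci 24.6% were lower and 19% higher, beside 3 and 1 of the 8 members. The effect differences above rest on the same male controls and had the opposite sign at Dusp1, Dusp5 and Dusp8. Dusp14 covered 161, 121 and 137 per Mb in male controls and 171 to 181 in diestrus controls, without overlap. Leaving out 1 library ended the call in 5 of 9 fits at Dusp1, 4 at Dusp8, 2 at Dusp14 and 1 at Dusp5, with adjusted p up to 0.217.

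The start regions of other pathway genes were tested in the same fit. Of 35 kinases, phosphatases and transcription factors of the MAPK pathway, 33 had a kept 5′ region and 32 were called in all libraries. On the mean of the 3 strata 0 of the 32 were higher, where 7.56% of protein-coding 5′ ends were, and 0 lower, where 1.2% were, with a median of 0.025 beside 0.16 for the 8 members and 0.070 for all protein-coding 5′ ends. In diestrus 1 of the 32 was higher (11.4% of protein-coding 5′ ends) and 0 lower (2.52%), in proestrus 0 were higher (0.176%) and 2 lower (1.05%), and in males 1 was higher (5.23%) and 0 lower (0.528%). In diestrus Creb1, the factor that binds the cAMP response element, was higher by 0.51 (adjusted p = 0.0241). In proestrus Ptpn5, a striatal tyrosine phosphatase of ERK, fell by 0.57 (adjusted p = 0.0427), and so was Rps6ka4, a kinase downstream of ERK and p38 (−0.59, adjusted p = 0.0390). In males Map2k2, an ERK kinase, was higher by 0.62 (adjusted p = 0.0170). Dusp16 and Dusp7, the members' close relatives, gave mean differences of 0.19 (adjusted p = 0.194) and −0.14 (adjusted p = 0.278). Mapk3, which encodes an ERK itself, gave −0.080 (adjusted p = 0.590), from −0.22 in diestrus, −0.37 in proestrus and 0.35 in males. Its male effect exceeded the female effect by 0.64 (adjusted p = 0.0238). That difference also passed at Rps6ka4 (1.05, adjusted p = 0.00179), Map2k2 (0.84, adjusted p = 0.00512) and Ptpn5 (0.86, adjusted p = 0.00645). It passed as well at Rps6ka1, Mapk7 and Srf, all higher in males. Of all protein-coding 5′ ends 16% were higher and 3.29% lower.

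Across the 17 libraries the members' 5′ ends are compared by Pearson's r as a description with no test, since all 5′ ends share the libraries and their depth and base composition. Dusp1 and Dusp8 varied most alike (r = 0.867), and these are the 2 members with a cAMP response element in the promoter. Dusp4 varied with Dusp6 (r = 0.689) and Dusp5 (r = 0.669), and Dusp6 with Dusp10 (r = 0.683), while Dusp1 and Dusp6 hardly varied together (r = 0.024). Among 10170 other 5′ ends the most alike was Gpr61 for Dusp2 (r = 0.892), Man1a for Dusp4 (r = 0.928) and Kat2b for Dusp5 (r = 0.848). It was Trmt10c for Dusp6 (r = 0.927), the shared start of Gtf2h1 and Hps5 for Dusp8 (r = 0.940), that of R3hdm1 and Zranb3 for Dusp10 (r = 0.953) and Rtn4rl1 for Dusp14 (r = 0.784).

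Markers were checked at their 5′ ends. The 5′ ends of all 10 neuronal and medium spiny neuron markers, among them Rbfox3, Drd1 and Ppp1r1b, were called in all 17 libraries, and 15 of 16 glial and vascular markers had no kept 5′ region. The exception was Mbp, a myelin gene, in 12 libraries.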

How the data were processed

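ATAC-seq libraries were read from the peak lists that the authors deposited, 1 per library, which per the study's methods were called with MACS2 after BWA-MEM alignment to mm10. The deposited columns hold each peak's fold enrichment over background, a −log10 p-value and −log10 q-value at the summit, and a score that MACS2 derives from the q-value, as the authors' peak caller wrote them. In each library fold enrichment equalled whole reads plus 1 over a constant background plus 1 in 100% of peaks, within 0.02 reads, or within 0.01% above 200 reads. Peaks of chromosomes 1-19 and X were merged across libraries at 1 bp of overlap into 281189 regions. Strength was log2 of the highest fold enrichment, centred on the library median and tested with limma 3.58.1 (R 4.3.3) over 36847 regions, with the 6 groups in 1 fit and Benjamini-Hochberg adjustment at 0.05. Covered length was log2(base pairs in peaks per Mb covered + 1), tested with limma over 16384 loci averaging at least 500 bp. Calls were compared by Fisher's exact test and by complete separation of groups. Gene models were GENCODE vM21, with the most 5′ principal transcript as the 5′ end. The scripts were tested on simulated data. The 8 genes, the pathway and marker lists and the named regions (5′ ends and regions past a test or separating groups) were chosen with earlier results of these data known. Alternatives were other scalings, stricter peaks, other overlaps and loci, a replicate block and leaving out each library. Total read depth was not used here, and intervals on single peaks were not computed. Some single-gene results are not reported here.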

Additional observations from a re-analysis of the deposited data

Results flagged for a closer look

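The effect of cocaine differed between males and females, by a limma test of the difference itself, at 3 member regions, 2 of 19 higher in males where 11.9% of all regions were and 1 of 19 lower where 6.53% were, which is near the background. The male effect minus the female effect was −0.72 on the log2 scale at the Dusp6 region 12.2 kb upstream (adjusted p = 0.0100), 0.88 at the Dusp1 region 41.1 kb upstream (adjusted p = 0.0168) and 0.87 at the Mob2 5′ end (adjusted p = 0.0208). In covered length the same difference was 0.80 at Dusp1 (adjusted p = 0.0139; −0.058 without scaling), −0.81 at Dusp5 (adjusted p = 0.0137) and 1.18 at Dusp8 (adjusted p = 0.0139). These are 2 of 8 members higher, where 23% of loci were, and 1 lower, where 10.6% were, again near the background. Each of the 6 lost its call without at least 1 of the 2 male cocaine libraries, the ones with the fewest peaks. The part of the lower peak number in these differences was not tested. The sex differences between controls share the male controls with these differences.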

How the results depend on the processing

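The male arm has 2 cocaine libraries, so male values and sex differences rest on them most. Dusp4 at its 5′ end passed in 17 of 17 fits that left out 1 library and Dusp6 in 14 of 17. The share of all kept regions or loci called under the same setting stands in parentheses after each count of members. With peaks covering at least 50% of a region, 1 member region was lost in diestrus (1.4%), 2 in proestrus (2.36%), 0 were gained in proestrus (3.18%), 3 were called in diestrus and not male controls (3.58%), and 3 passed Fisher's test lower (10.1%). With stricter peaks (−log10 q of at least 5), 0 were gained in proestrus (2.29%), 2 were called in diestrus and not proestrus controls (3.64%), 0 in male and not proestrus controls (12.8%), 0 in diestrus and not male controls (2.2%), and 1 passed Fisher's test higher (3.84%). With equal numbers of strongest peaks the same counts were 0 (2.38%), 2 (3.15%), 0 (8.11%), 2 (3.64%) and 1 (9.2%), with 1 lost in males (9.37%) and 0 lower by Fisher's test (5.65%). Loci extended by 5 kb gave 0 gained in proestrus (2.45%).

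Past the strength threshold without centring were 0 member regions in diestrus (1.74% higher and 0.546% lower), 4 in males, all lower (32.9%), 1 on the mean, lower (8.76%), 5 for the male minus female effect, all lower (37.6%), and 5 between control sexes, all higher (31.2%). Quantile normalization gave 2 in diestrus, 1 each way (6.62% and 6.36%), 2 in proestrus, both higher (2.6%), 1 in males, lower (5.04%), 5 on the mean, 3 higher and 2 lower (7.31% and 7.68%), and 5 for the effect difference, 2 higher and 3 lower (9.81% and 9.93%). GC bins gave 2 in diestrus (7.87%) and 1 in proestrus (1.07%), all higher. The mean of the female strata, chosen after seeing the data, gave 6 regions, 4 higher (11.8%) and 2 lower (11.7%), and 5 loci, 3 higher (21.2%) and 2 lower (30.8%).

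In covered length without scaling, 0 members passed in proestrus (7.62% higher and 3.42% lower), 3 in males, all lower (56.2%), and 0 between control sexes (17.6% higher and 7.89% lower), and values turned to −0.0076 for Dusp4 on the mean, −0.31 for Dusp4 in males and −0.058 for the Dusp1 effect difference. Stricter peaks gave 3 in males, all higher (16.3%), and 2 between control sexes, both lower (22.3%), and no filter gave 0 in proestrus (9.08% higher and 15.95% lower). The cause of these changes was not tested.

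With the replicate number as a replicate block, 0 regions passed in males (4.49% higher and 3.42% lower) and 5 on the mean, 4 higher and 1 lower (7.94% and 5.45%), Dusp10 (0.37, adjusted p = 0.00464) and Dusp5 (0.26, adjusted p = 0.0477) passing by limma, and 0 loci passed in proestrus (6.38% higher and 8.67% lower). The numbers were not taken as pairs: the deviations of 7 same-numbered pairs correlated between −0.293 and 0.195, and 2 exceeded 0.1. Those of 17 differently numbered pairs correlated between −0.272 and 0.303, and 5 exceeded 0.1.

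Leaving out each library gave 0 to 1 gained (1.56% to 2.59%) and 0 to 4 lost in diestrus (1.4% to 7.34%), 0 to 3 lost in proestrus (2.27% to 3.77%), and 0 to 1 gained (0.876% to 2.04%) and 5 to 7 lost in males (19% to 24.7%). Between controls it gave 1 to 6 in diestrus and not proestrus (4.79% to 6.88%), 0 to 3 the other way (1.04% to 2.12%), 1 to 3 in male and not diestrus (10.2% to 13%), 1 to 5 the other way (3.64% to 6.15%), 1 to 3 in male and not proestrus (11.8% to 15.2%) and 0 to 4 the other way (1.73% to 3.42%). Complete separation is easier to meet with 1 library fewer, so these ranges do not test the calls. Fisher's test lower gave 1 to 2 (5.18% to 12.6%). Strength, in both directions, gave 0 to 5 in diestrus (1.0% to 27.4%), 0 to 1 in proestrus (0.559% to 10.4%), 0 to 1 in males (2.06% to 7.71%), 2 to 5 on the mean (7.96% to 23.8%), 0 to 8 for the effect difference (5.38% to 27.8%) and 1 to 3 between control sexes (14% to 25.2%). Covered length gave 0 to 4 (0.0488% to 44%), 0 to 2 (20.1% to 47.2%), 0 to 1 (1.82% to 11.3%), 1 to 4 (20.9% to 50.3%), 0 to 4 (10.6% to 46.3%) and 1 to 4 (24.9% to 43.4%) in the same order.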
